A study of Mus musculus with 20 samples.

Results

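The glycolysis and gluconeogenesis isoenzymes studied here were 8 genes: Hk1, Hk2, Aldoa, Pklr, Pkm, G6pc, Fbp1 and Pck1. They were taken by name from the deposited count table, in which 9 of 55401 rows carried these symbols, since Aldoa was the name of 2 gene identifiers. ENSMUSG00000030695 was treated as Aldoa, and the other row, ENSMUSG00000114515, had at most 3.36 TPM in any library and is not described further. TPM, a length-normalised transcript abundance, is the read count divided by the summed exon length of the gene and scaled to the same total in each library, so that it compares levels between genes.

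The table held 20 mRNA sequencing libraries of 5 organs (small intestine, spleen, heart, liver and kidney), from wild-type (WT) and Nsun6-knockout (KO) mice, with 2 libraries for each tissue and genotype. All mice were 8-week-old females. The KO mice were homozygous for a germline CRISPR/Cas9 deletion, made in C57BL/6J zygotes, of exons 3 and 4 of Nsun6, an RNA 5-methylcytosine methyltransferase, and no other allele or treatment was named. Total counts per library ran from 15897446 to 44508197, with a median of 28513950. The study calls the libraries of a group biological replicates, and the labels number them 1 and 2 but do not say whether they came from separate animals, so p-values measure the spread between these libraries only. The Nsun6 gene had 2.86 and 1.45 TPM in WT and 1.24 and 1.37 TPM in KO liver, and 4.09 and 2.57 TPM in WT and 2.26 and 1.90 TPM in KO kidney, so that the KO libraries of these tissues lay below the WT ones. The genotypes overlapped in small intestine (5.48 and 2.70 TPM in WT, 5.59 and 2.44 TPM in KO), spleen (4.84 and 3.42, 2.91 and 4.88 TPM) and heart (3.11 and 3.74, 2.41 and 3.27 TPM). It was called in no tissue, with log2 fold changes from -0.67 (kidney) to 0.08 (spleen). The counted row spans all exons, so a deletion of 2 of them need not lower it, and it does not check the genotype labels.

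Glycolysis splits glucose to pyruvate, and gluconeogenesis makes glucose anew by running the reversible steps backwards and bypassing the irreversible ones with its own enzymes. Hexokinases trap glucose as glucose-6-phosphate, aldolases split fructose-1,6-bisphosphate, and pyruvate kinases make pyruvate. The cytosolic PEP carboxykinase Pck1, the fructose-1,6-bisphosphatase Fbp1 and the glucose-6-phosphatase catalytic subunit G6pc are the bypass enzymes, best known from liver and kidney cortex. Most steps are shared out among isoenzymes encoded by different genes, and tissues are known for which one they use.

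The RefSeq start-site windows (GRCm38.p6, 250 bases before to 50 after an annotated start) are printed for the 3 bypass genes, whose levels moved together across tissues, and for Pklr, which has 2 such windows that counts per gene cannot tell apart. All 8 genes had at least 1 window, 13 in all. Each sequence is given 5′ to 3′ on the strand of the gene, and capitals mark matches to 5 motifs searched on both strands. These were the letters TATAAA of a TATA box, GATAAG for GATA factors, ACGTCA from the cAMP response element, GTTAAT from the HNF1 site and GGGCGG of a GC box.
G6pc, chr11:101367466-101367765, plus strand: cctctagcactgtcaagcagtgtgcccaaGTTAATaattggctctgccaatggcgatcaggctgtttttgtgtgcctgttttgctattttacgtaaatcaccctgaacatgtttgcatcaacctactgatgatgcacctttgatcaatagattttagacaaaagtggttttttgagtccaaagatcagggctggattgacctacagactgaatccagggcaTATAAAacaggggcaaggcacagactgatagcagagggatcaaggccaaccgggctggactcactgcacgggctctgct
Fbp1, chr13:62888233-62888532, minus strand: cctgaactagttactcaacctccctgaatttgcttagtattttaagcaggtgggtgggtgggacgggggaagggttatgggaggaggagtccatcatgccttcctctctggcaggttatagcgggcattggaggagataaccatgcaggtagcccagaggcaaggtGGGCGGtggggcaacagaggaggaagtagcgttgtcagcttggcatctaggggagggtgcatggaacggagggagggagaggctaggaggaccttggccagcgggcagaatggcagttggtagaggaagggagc
Pck1, chr2:173152823-173153122, plus strand: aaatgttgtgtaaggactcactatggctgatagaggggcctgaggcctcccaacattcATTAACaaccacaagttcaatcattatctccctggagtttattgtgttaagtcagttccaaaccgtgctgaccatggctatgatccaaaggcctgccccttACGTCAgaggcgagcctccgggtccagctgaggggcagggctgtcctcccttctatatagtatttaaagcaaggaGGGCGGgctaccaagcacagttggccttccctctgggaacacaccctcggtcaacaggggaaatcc
Pklr upstream window, chr3:89135892-89136191, plus strand: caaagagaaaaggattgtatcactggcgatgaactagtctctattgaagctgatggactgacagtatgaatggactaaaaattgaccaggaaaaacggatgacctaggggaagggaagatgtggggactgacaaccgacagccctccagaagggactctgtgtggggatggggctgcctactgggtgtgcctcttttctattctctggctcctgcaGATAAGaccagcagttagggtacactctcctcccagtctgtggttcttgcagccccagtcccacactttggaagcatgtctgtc
Pklr downstream window, chr3:89136373-89136672, plus strand: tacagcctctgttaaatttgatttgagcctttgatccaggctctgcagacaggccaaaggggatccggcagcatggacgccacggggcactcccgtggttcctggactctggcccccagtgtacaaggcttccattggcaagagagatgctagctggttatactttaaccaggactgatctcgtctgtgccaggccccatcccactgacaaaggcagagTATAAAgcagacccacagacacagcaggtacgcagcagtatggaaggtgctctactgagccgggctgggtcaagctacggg
The G6pc window held TATAAA from base 222 and GTTAAT from base 30. That of Pck1 held GTTAAT on the other strand from base 59, ACGTCA from base 160 and GGGCGG from base 235, while that of Fbp1 held GGGCGG alone, from base 167. The upstream Pklr window held GATAAG from base 217, and the downstream one held TATAAA from base 220. No printed matches overlapped. Among all 32851 windows of 300 bases, TATAAA was present in 13.6%, GATAAG in 7.44%, ACGTCA in 7.51%, GTTAAT in 7.1% and GGGCGG in 35.7%, so single matches of this kind were common.

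Several libraries stood apart from others of their tissue and bear on the values that follow. In the small intestine, the libraries numbered 1 summed to 41450 (WT) and 40610 TPM (KO) over 3 distal intestine markers led by Fabp6, the ileal bile acid binding protein, while those numbered 2 summed to 3.50 and 6.65 TPM. The 6 proximal markers, which include Pdx1 and Lct, ran the other way, with 203 and 116 TPM in the libraries numbered 1 against 2195 and 3216 TPM in those numbered 2. The labels name no segment. In the spleen, WT library 2 held 7 hepatocyte markers (Alb the most abundant) at a median of 3.27% of their mean liver level, against 0.0121% in WT library 1, 0.102% in KO library 1 and 0.153% in KO library 2. Spleen KO library 1 also held 7 nephron markers at a median of 0.262% of their kidney level, with at most 0.00982% in the other spleen libraries. In the kidney, WT library 2 had 752 TPM over 4 proximal tubule markers against 1795 to 4534 TPM in the other 3, and the lowest mean correlation with its tissue (0.957 against 0.969 to 0.982). Of these markers, Slc34a1 (245 against 933 to 3374 TPM) and Slc5a2 (34.9 against 247 to 673 TPM) were far lower there. Slc22a6 was at 141 TPM against 162 to 258 TPM, and Lrp2, at 331 TPM, was above its level in WT library 1 (308 TPM). In the heart, 6 adipocyte markers, led by Cfd, summed to 541 TPM in WT library 2 and 208 TPM in KO library 2 but to 4.70 and 11.2 TPM in the libraries numbered 1. The heart libraries numbered 2 also had higher total counts (36090637 in WT and 41763236 in KO) than those numbered 1 (17959542 and 15897446). The 4 atrial markers, led by Myl7, summed to 168.5 TPM in heart KO library 1 against 1358 to 3916 TPM in the other heart libraries. The part of these differences in the heart levels was not tested. The defining markers of each labelled tissue were present in every library of it.

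The hexokinase genes had different levels in the tissues. Hkdc1, a hexokinase-domain protein, had 71.5 and 101 TPM in WT and 176 and 90.8 TPM in KO small intestine, and at most 2.49 TPM in any library of the other tissues. Hk3, known from white blood cells, had 17.3 and 14.8 TPM in WT and 13.5 and 12.02 TPM in KO spleen, and at most 5.17 TPM elsewhere. The intestine and spleen values of these genes did not overlap those of any other tissue.

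Hk1, the widely used mitochondria-bound hexokinase, was highest in heart, with 11.9 and 29.3 TPM in the WT and 13.01 and 41.2 TPM in the KO libraries. Both heart libraries numbered 2 were above both numbered 1, in either genotype. Kidney had 17.8, 2.49, 17.5 and 12.1 TPM in WT 1, WT 2, KO 1 and KO 2, the low value being that of the kidney library that stood apart. In the spleen the range was 7.52 to 12.6 TPM, in the small intestine 1.58 to 3.77 TPM and in the liver 0.19 to 0.41 TPM. In the fit of all 20 libraries by edgeR, heart exceeded kidney (log2 fold change 1.20 ± 0.40 SE, adjusted p = 0.0258), spleen exceeded small intestine (1.61 ± 0.41, adjusted p = 0.00437) and small intestine exceeded liver (2.36 ± 0.43, adjusted p = 0.000424). Kidney and spleen did not pass (0.45 ± 0.40, edgeR adjusted p = 0.362). The heart-kidney call was lost, with the difference under 2-fold, when kidney WT library 2, heart WT library 2 or heart KO library 2 was left out (log2 fold change of kidney against heart -0.82, -0.84 and -0.78).

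Hk2, the hexokinase of insulin-responsive muscle and fat, was highest in heart, with 74.5 and 80.1 TPM in WT and 71.8 and 105 TPM in KO libraries. The small intestine followed with 71.9 TPM in WT library 1 but 3.39, 11.7 and 2.47 TPM in WT 2, KO 1 and KO 2, so that 1 of 4 libraries reached the level of heart. That library also had the highest B cell marker sum of its tissue, 180 TPM against 0.373 to 26.7 TPM in the other 3, and the part of this in the Hk2 level was not tested. Spleen had 3.29 to 4.95 TPM, liver 0.27 to 1 TPM and kidney 0.10 to 0.34 TPM. All neighbours in this order passed in edgeR, from heart against small intestine (log2 fold change 2.49 ± 0.68 SE, adjusted p = 0.00671) to liver against kidney (2.43 ± 0.78, adjusted p = 0.0265). Spleen against liver was 1.64 ± 0.68 (edgeR adjusted p = 0.0568). Without small intestine WT library 1, small intestine against spleen went from 2.45 to 0.88 and was not called. The spleen-liver call was lost without liver WT 2, liver KO 2, spleen WT 1 or spleen KO 1 (liver against spleen -1.57 to -1.42), and the liver-kidney call without liver WT 1, liver KO 1, kidney WT 2 or kidney KO 2 (1.98 to 2.27).

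**Figure D1:**
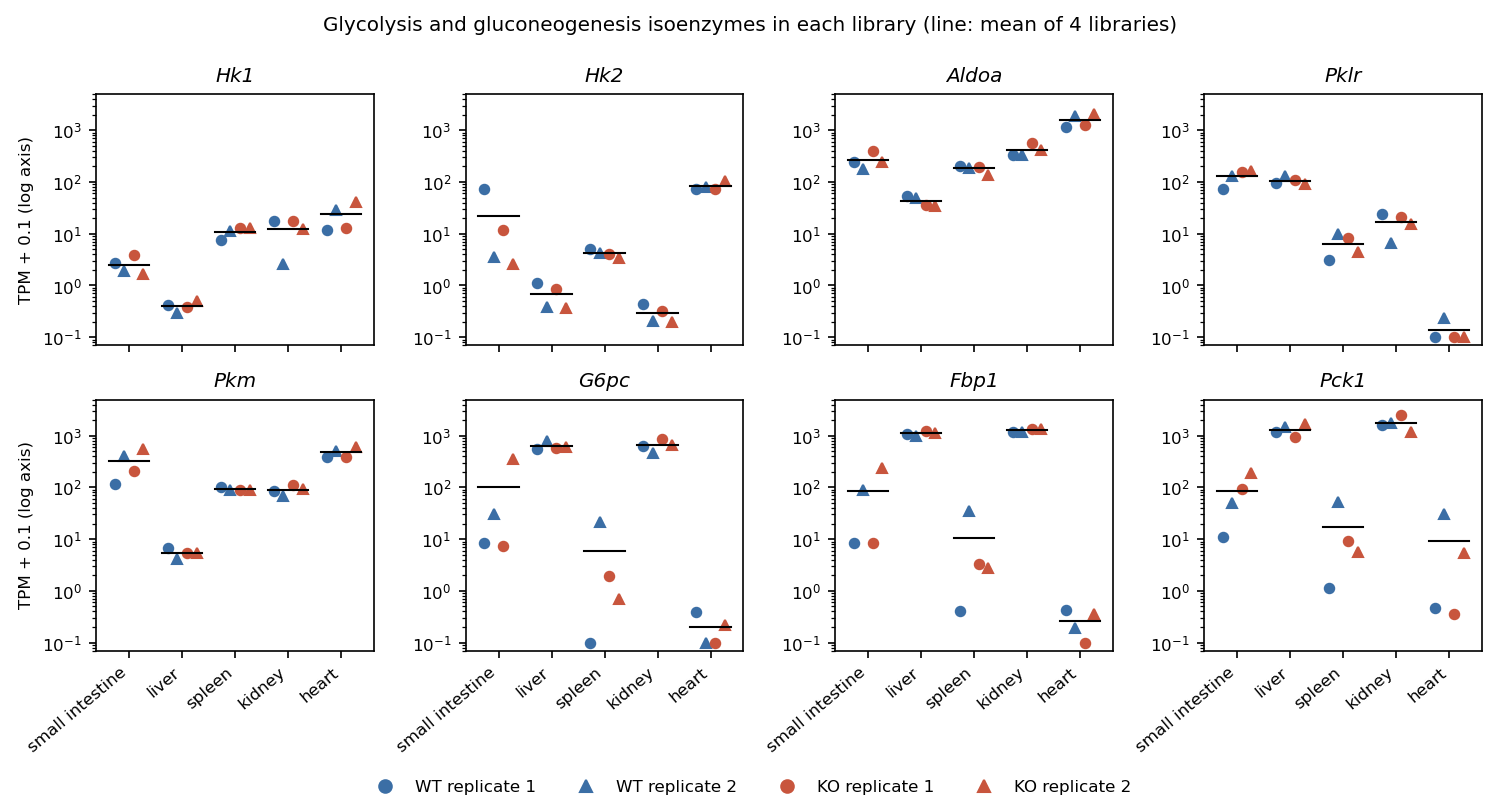
Level of each of the 8 isoenzyme genes in all 20 libraries, as TPM + 0.1 on a log axis, by tissue; blue points are WT, red points KO, circles replicate 1, triangles replicate 2, and the line is the mean of 4 libraries. G6pc, Fbp1 and Pck1 were high in liver and kidney, Pklr was near 0 in heart, and 1 spleen library (WT 2) lay above the other 3 for the bypass enzymes.

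Aldoa, the muscle-type aldolase, was highest in heart. Heart had 1166 and 1870 TPM in WT and 1238 and 2101 TPM in KO libraries, and all 4 lay above every library of the other tissues. Kidney had 334 to 555 TPM, small intestine 179 to 402 TPM, spleen 136 to 208 TPM and liver 34.3 to 54.4 TPM. Heart against kidney (log2 fold change 2.14 ± 0.24 SE, edgeR adjusted p = 6.2e-06) and small intestine against spleen (1.08 ± 0.23, adjusted p = 0.00135) passed. Kidney against small intestine (0.49 ± 0.23, edgeR adjusted p = 0.0929) and spleen against liver (0.87 ± 0.23, adjusted p = 0.00523) stayed under 2-fold, as did small intestine against spleen without small intestine KO library 1 (0.98) or spleen KO library 2 (0.96).

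The pyruvate kinases divided the tissues differently. Pklr encodes the liver and red cell enzymes from 2 start sites, and Pkm the muscle and proliferating-cell forms by splicing, neither of which counts per gene can resolve. The Pklr share of pyruvate kinase TPM was 95.0% ± 1.52 in liver, 32.0% ± 10.4 in small intestine, 15.2% ± 5.53 in kidney, 6.33% ± 3.16 in spleen and 0.00701% ± 0.0140 in heart (n = 4 each). Pkm took the rest. Small intestine was thus the tissue in which both genes were abundant.

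Pklr was measured at 71.9 and 128 TPM in WT and 159 and 161 TPM in KO small intestine, and at 94.2 and 128 TPM in WT and 107 and 89.4 TPM in KO liver, so that these tissues overlapped. Kidney had 23.9, 6.41, 21.1 and 15.2 TPM in WT 1, WT 2, KO 1 and KO 2, and spleen 2.95, 9.66, 8.05 and 4.28 TPM. In heart 3 libraries were at 0 counts, which allows up to 0.128, 0.14 and 0.0655 TPM in WT 1, KO 1 and KO 2 at a limit of 3 counts per library, and WT 2 had 6 counts. Liver exceeded kidney (log2 fold change 3.60 ± 0.48 SE, edgeR adjusted p = 6.14e-05) and kidney exceeded spleen (1.72 ± 0.45, adjusted p = 0.00609). Small intestine against liver did not pass (-0.35 ± 0.44, edgeR adjusted p = 0.549). Of the summed exon bases of Pklr, 22% also lie in exons of Hcn3 on the opposite strand, a gene at 12.5 TPM in liver and 5.58 TPM in small intestine, and its reads could not be separated if strand was not used in counting. Of those of Pkm, 15.3% also lie in exons of Gm49759 on the same strand, a gene at 45.8 TPM in small intestine and 16.1 TPM in heart, so that strand could not divide their reads, and Pkm levels and pyruvate kinase shares are uncertain by that overlap.

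Pkm was highest in heart, with 395 and 512 TPM in WT and 385 and 613 TPM in KO libraries. In the small intestine it had 115 and 211 TPM in the libraries numbered 1 and 406 and 557 TPM in those numbered 2, which overlapped the range of heart. Spleen (88.4 to 99.6 TPM) and kidney (68.9 to 109.9 TPM) overlapped, and liver had 4.06 to 6.72 TPM. The neighbours in this order that passed were small intestine against spleen (log2 fold change 2.45 ± 0.42 SE, edgeR adjusted p = 0.00023) and kidney against liver (3.23 ± 0.43, adjusted p = 3.64e-05). Heart against small intestine (0.51 ± 0.40, edgeR adjusted p = 0.297) and spleen against kidney (-0.34 ± 0.40, adjusted p = 0.503) did not. Without small intestine WT library 2, Pkm was called lower in small intestine than in heart (-1.11).

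**Figure D2:**
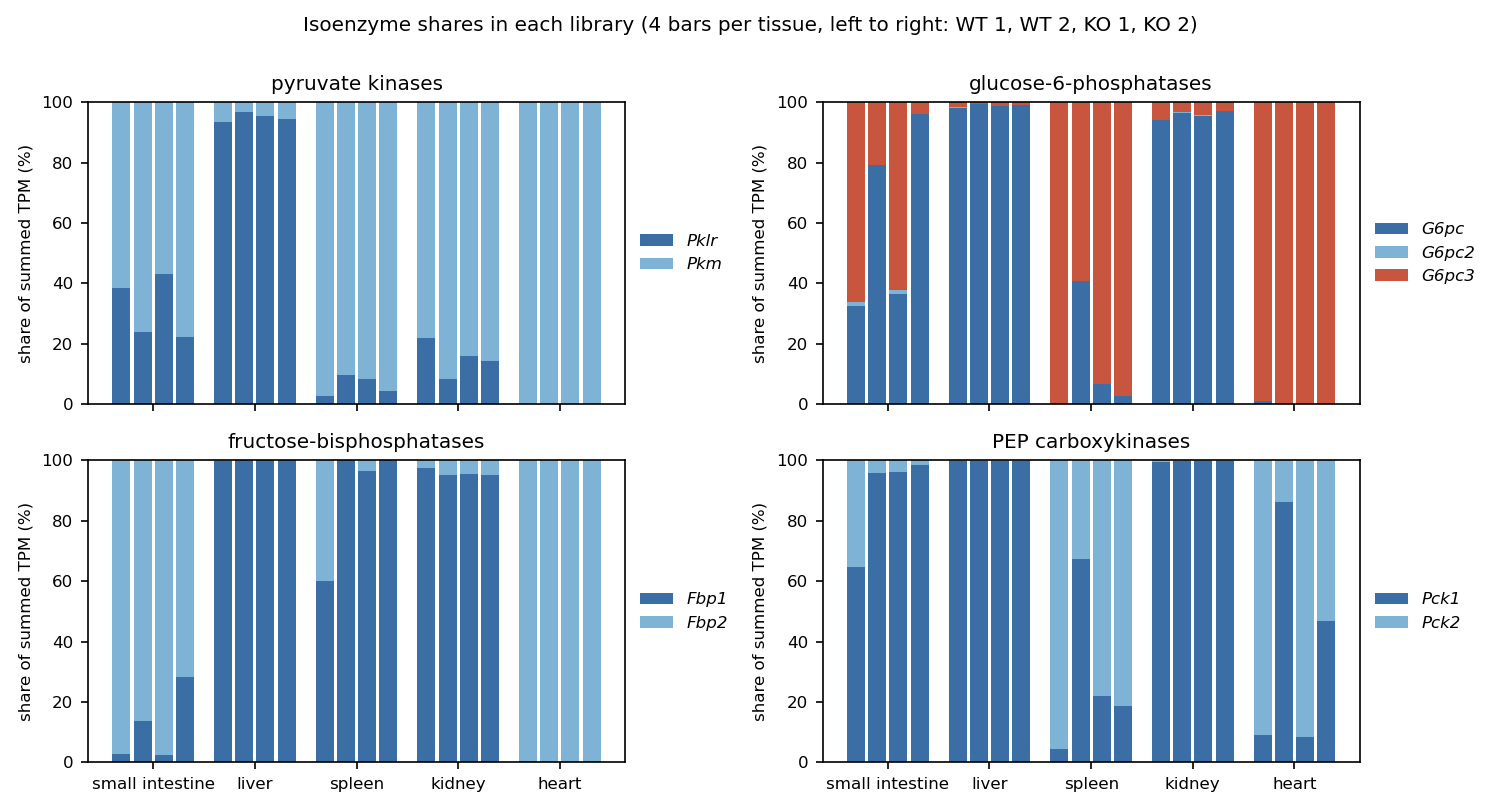
Share of each isoenzyme in the summed TPM of its family, in percent, for 4 families; each bar is 1 library, 4 per tissue in the order WT 1, WT 2, KO 1, KO 2. Pklr led the pyruvate kinases in liver only (95.0%), Fbp2 led in small intestine (88.2%) and heart (99.8%), and the spleen WT 2 bar departed from the other spleen bars in glucose-6-phosphatases.

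The 3 bypass enzymes were abundant in liver and kidney and lower in small intestine. In heart, G6pc and Fbp1 were near the lower limit of measurement, as was Pck1 in the libraries numbered 1 (9 and 6 counts). G6pc, which releases free glucose, had 559.8, 773, 574 and 594 TPM in liver WT 1, WT 2, KO 1 and KO 2, and 628, 457, 874 and 669 TPM in the same order in kidney. In the small intestine it had 8.26 and 30.3 TPM in WT and 7.17 and 355 TPM in KO libraries, so that KO library 2 was more than 10 times above any other. Heart had 0.29, 0, 0 and 0.12 TPM, at most 5 counts. Liver exceeded small intestine (log2 fold change 3.94 ± 1.36 SE, edgeR adjusted p = 0.0283), and kidney against liver did not pass (-0.80 ± 1.22, adjusted p = 0.684). In this fit of all 20 libraries the SE of a gene drew on its spread in every tissue. It is therefore not the spread of liver and kidney alone. The liver-intestine call for G6pc was lost without small intestine WT library 1 (small intestine against liver -3.58, edgeR adjusted p = 0.104), and the difference was -6.40 without small intestine KO library 2. Against kidney, G6pc in small intestine was lower by edgeR (-3.13 ± 1.31, adjusted p = 0.0636), a call lost without small intestine WT 1, small intestine KO 1 or any 1 of the 4 kidney libraries, and at an adjusted p under 0.05.

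Fbp1 had the most even levels in the 2 main tissues, 998 to 1212 TPM in liver and 1169.8 to 1353 TPM in kidney. In the small intestine it had 8.39 and 8.25 TPM in the WT and KO libraries numbered 1 but 90.8 and 232 TPM in those numbered 2. Heart had at most 0.32 TPM. Its paralog Fbp2, the muscle fructose-1,6-bisphosphatase, held 99.8% of the family TPM in heart (SD 0.183) and 88.2% ± 12.1 in small intestine, where it was measured at 277 and 568 TPM in WT and 337 and 590 TPM in KO libraries (n = 4). Fbp1 held 99.97% in liver and 95.8% in kidney. Liver exceeded small intestine for Fbp1 by 4.34 ± 1.24 on the log2 scale (edgeR adjusted p = 0.0109). Without small intestine KO library 2, small intestine against liver was -6.40 for Fbp1, and it was called in every fit with 1 library left out.

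Pck1, which makes phosphoenolpyruvate from oxaloacetate, had 1155, 1459.98, 956 and 1648 TPM in liver and 1580.3, 1763, 2555 and 1191 TPM in kidney, in the order WT 1, WT 2, KO 1, KO 2. Small intestine had 11.02 and 50.02 TPM in WT and 92.0 and 191 TPM in KO libraries. Liver exceeded small intestine by 4.89 ± 1.32 on the log2 scale (edgeR adjusted p = 0.00769), and kidney against liver did not pass (-0.38 ± 1.12, adjusted p = 0.881). In heart Pck1 stood at 0.36 and 0.26 TPM in the libraries numbered 1 but at 30.0 and 5.34 TPM in WT 2 and KO 2, the same libraries in which the adipocyte markers were raised. Pck1 is also an adipose enzyme, and the part of fat in these heart values was not tested. The mitochondrial isoenzyme Pck2 had a mean share of 71.9% ± 27.2 in spleen and 62.4% ± 37.02 in heart (SD, n = 4), but Pck1 had the larger share in WT library 2 of both tissues, 67.3% in spleen and 86.1% in heart. G6pc3, the widely expressed glucose-6-phosphatase, held 87.5% of its family in spleen and 99.6% in heart.

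Across the 20 libraries the logged levels of G6pc and Fbp1 had a Pearson r of 0.993, G6pc and Pck1 of 0.952 and Fbp1 and Pck1 of 0.954, a description that largely restates the difference between tissues. Among 23115 other genes, the closest pattern to G6pc was that of Slc27a2 (r = 0.984), a long-chain acyl-CoA synthetase, and to Fbp1 and Pck1 that of Rdh16f2 (r = 0.990 and 0.966). Pklr was closest to Akr1c12 (r = 0.977), Pkm to Cpe (r = 0.981), Aldoa to Slc25a4 (r = 0.970), the muscle ADP/ATP carrier, Hk1 to Ptpn14 (r = 0.971) and Hk2 to Adamts17 (r = 0.942).

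Counted over pairs of tissues, most members passed in every pair, as did a large share of all genes. A member was called at an adjusted p under 0.1 with more than 2-fold change. Of the 9 rows, 7 were called between small intestine and liver (46.3% of all 23159 genes tested), 8 between small intestine and spleen (49.5%), 7 between small intestine and kidney (45.7%) and 7 between small intestine and heart (53.5%). Liver differed from spleen in 7 (52.2%), from kidney in 5 (34.7%) and from heart in 8 (44.5%). Spleen differed from kidney in 6 (50.5%) and from heart in 7 (52.6%), and kidney from heart in 8 (38%). Between liver and kidney the called genes were Hk1, Hk2, Aldoa, Pklr and Pkm, while G6pc, Fbp1 and Pck1 were not called. The SE of these bypass enzymes in this fit also drew on their spread in the other tissues. Without spleen WT library 2, the spleen was no longer called above heart for G6pc and Fbp1, and G6pc lost this call also without heart WT library 2 (4.12).

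Levels as TPM put the liver low relative to the other tissues. Scaling by trimmed mean of M-values (TMM), which the tests used, shifted small intestine, kidney, heart and spleen by -0.644, -0.83, -0.611 and -1.23 on the log2 scale relative to liver. With that scaling liver, not kidney, had the highest mean G6pc, Fbp1 and Pck1 and, instead of small intestine, the highest Pklr, and kidney exceeded spleen for Pkm. Those were the pairs whose test did not pass. The order of Hk1, Hk2 and Aldoa was the same on both scales.

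Within the small intestine, the libraries numbered 2, which carried the proximal markers, had more Fbp1 in every fit. The Pkm call depended on single libraries, and the Pck1 call was lost once the genotype term was dropped. In a model with genotype, 3 of 8 members tested were called, all higher in the libraries numbered 2: Fbp1 (log2 fold change 4.47 ± 0.44 SE, edgeR adjusted p = 0.028), Pkm (1.97 ± 0.26, adjusted p = 0.044) and Pck1 (1.97 ± 0.34, adjusted p = 0.0715). Of all 17680 genes tested, 7.64% were called, 800 higher and 550 lower. With 1 library left out and no genotype term, Fbp1 stayed called in all 4 fits, Pkm lost its call without WT 2 (2.11) or KO 2 (1.77), and Pck1 lost it in all 4 (0.45 to 3.72). Pck1 was also not called with all 4 libraries and no genotype term (1.59, edgeR adjusted p = 0.473) or at an adjusted p under 0.05. G6pc had 4.10 ± 1.16 (edgeR adjusted p = 0.17) and Hk2 -2.98 ± 0.64 (adjusted p = 0.11), and neither was called. Pklr (0.78), Aldoa (-0.22) and Hk1 (-0.52) also remained uncalled. DESeq2 called 5 members, adding G6pc and Hk2, among 2207 of the 17680 genes tested. Of the adipocyte markers, Adipoq had 25.7 and 18.7 TPM in the libraries numbered 1 and 0.13 and 0 TPM in those numbered 2. Cfd, Retn, Plin1 and Lep were also higher in the libraries numbered 1, while Cidec was higher in those numbered 2. The part of fat in the Hk2 and Pck1 differences was not tested.

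**Figure D3:**
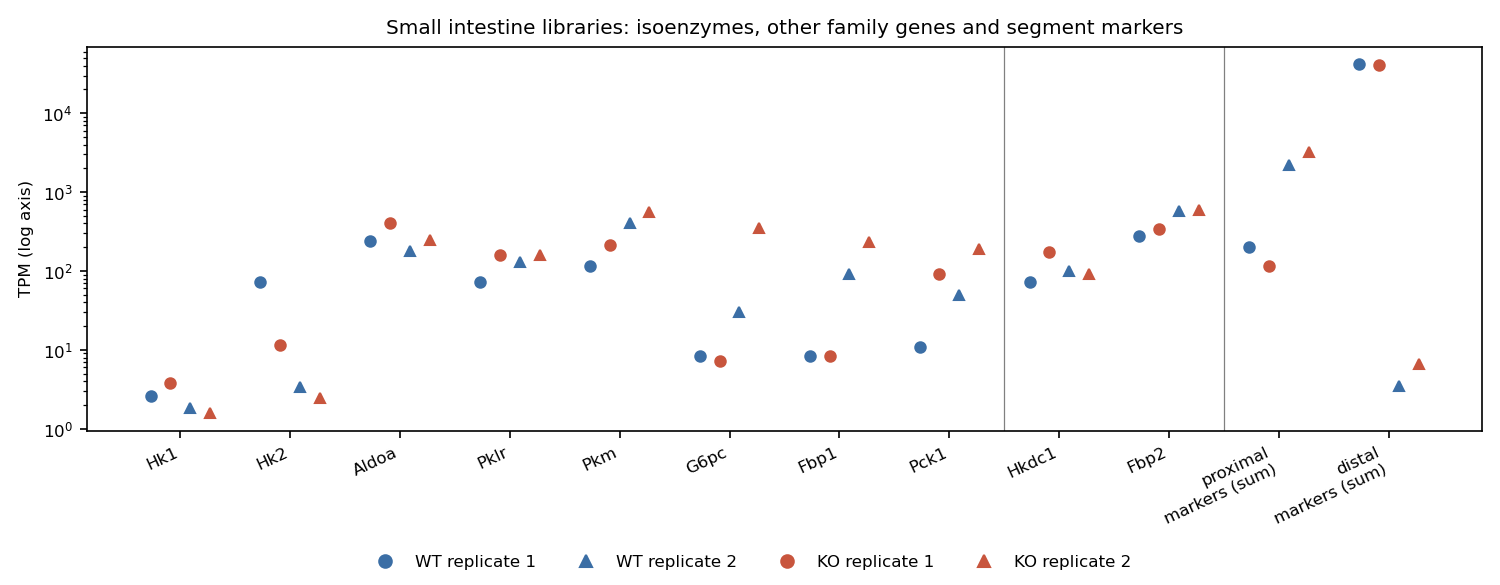
Levels in the 4 small intestine libraries, as TPM on a log axis, for the 8 isoenzymes (left), 2 other genes of their families (middle) and the summed proximal and distal intestine markers (right); blue is WT, red KO, circles replicate 1, triangles replicate 2. Fbp1 was at 8.39 and 8.25 TPM in the circles and 90.8 and 232 TPM in the triangles, and the distal markers ran the opposite way.

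Of a list of 37 other pathway genes, 32 were tested by number, of which 9 were called higher and 0 lower in the libraries numbered 2, and 23 were not called. Of all 17680 genes tested, 7.64% were called in either direction. Among the 9 were the glucose-6-phosphate transporter Slc37a4 (log2 fold change 2.51 ± 0.23 SE, edgeR adjusted p = 0.0244), Aldoc, Gapdh, Eno1, Gpi1, Fbp2, Pfkl and Pgam1. Gapdh (1.55) and Eno1 (1.51) act in the reversible part of the pathway. Hkdc1 did not pass (0.12 ± 0.41, edgeR adjusted p = 0.895). The median of the list was 0.44 on the log2 scale against -0.03 over all genes tested.

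In the spleen, the bypass enzymes were highest in the library with the most hepatocyte transcripts. G6pc had 0 counts in WT library 1, 21.1 TPM in WT library 2, and 1.88 and 0.61 TPM in the KO libraries. Fbp1 had 0.31, 35.6, 3.20 and 2.65 TPM and Pck1 1.05, 52.7, 9.23 and 5.61 TPM in the same order. As a percentage of their liver means, the WT 2 values were 3.37% for G6pc, 3.22% for Fbp1 and 4.04% for Pck1, inside the 2.32% to 4.85% range of the 7 hepatocyte markers in that library. In KO library 1, G6pc and Fbp1 were at 0.286% and 0.252% of their kidney means, beside nephron markers at a median of 0.262%. Pck1 was higher than these markers in both KO libraries: in KO library 1 it was at 0.521% of its kidney mean (nephron markers at most 0.491%) and 0.707% of its liver mean (hepatocyte markers at most 0.202%), and in KO library 2 at 0.316% of its kidney mean and 0.43% of its liver mean, against at most 0.107% and 0.24% for the markers. The adipocyte markers summed to 76.7 and 22.5 TPM in WT and 152 and 132 TPM in KO spleen, and their part in the Pck1 values was not tested. Fewer cells of a type and less RNA per cell cannot be told apart in such tissue libraries. Pklr was at 2.82% of its liver mean in WT library 1, where the hepatocyte markers were at a median of 0.0121%. In WT 2, KO 1 and KO 2 it was at 9.23%, 7.69% and 4.09%, so that Pklr too was highest in WT library 2. The part of hepatocyte transcripts in the Pklr values was not tested.

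**Figure D4:**
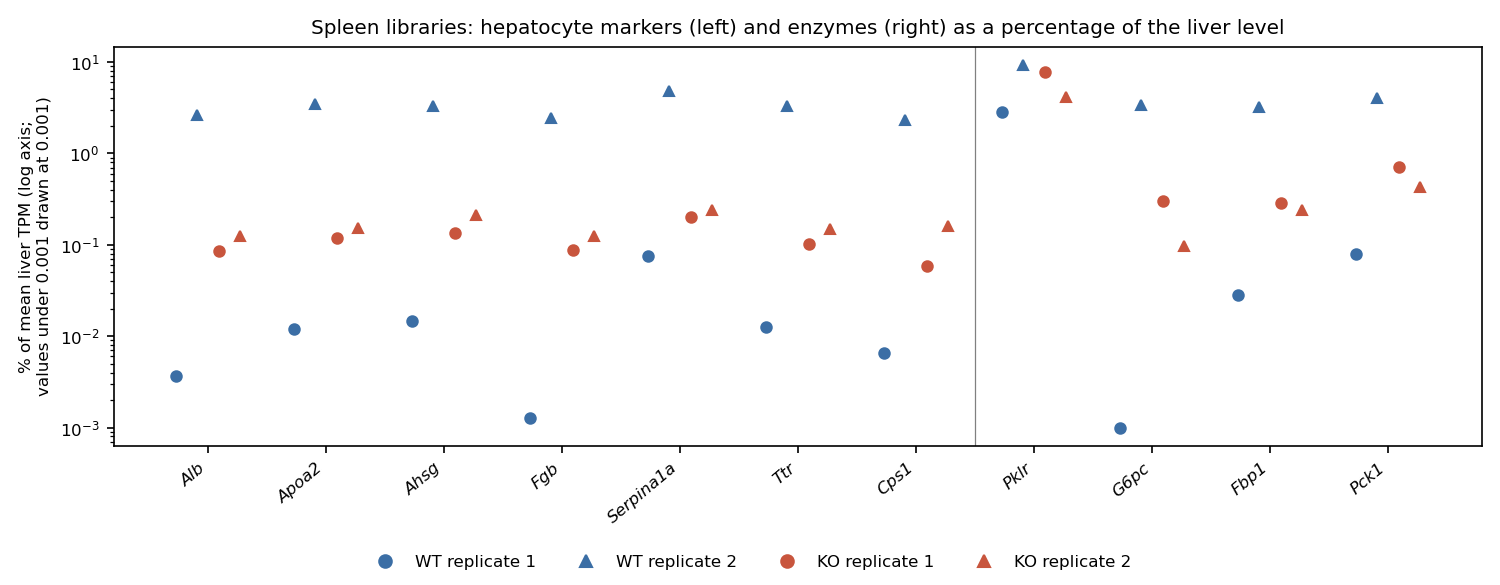
Levels in the 4 spleen libraries as a percentage of the mean liver TPM (log axis; values under 0.001 drawn at 0.001) for 7 hepatocyte markers (left) and 4 enzymes (right); blue is WT, red KO, circles replicate 1, triangles replicate 2. In WT 2, G6pc (3.37%), Fbp1 (3.22%) and Pck1 (4.04%) lay at the height of the hepatocyte markers (median 3.27%), and Pklr was above them in all 4 libraries.

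No member was called between KO and WT in any tissue. In small intestine 0 of 8 members tested were called (0% of all genes), in liver 0 of 8 (0.0509%), in spleen 0 of 8 (0.223%), in kidney 0 of 8 (0%) and in heart 0 of 6 (0%), by edgeR. In heart Pklr, G6pc and Fbp1 fell under the count filter, and the 6 rows tested were the other 5 genes and the second Aldoa row, which passed the filter in no other tissue. Unadjusted p under 0.05 was reached by 1 member in spleen and by none in the other tissues, against 422, 739, 969, 112 and 117 genes in small intestine, liver, spleen, kidney and heart. DESeq2 called none of the members either.

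The spleen gene with an unadjusted p under 0.05 was Hk1, at 7.52 and 11.1 TPM in WT and 12.6 and 12.6 TPM in KO libraries (log2 fold change 0.59 ± 0.23 SE, edgeR adjusted p = 0.904). The groups did not overlap. Hk1 is the main hexokinase of red cells, and the 9 erythroid markers, led by globins, summed to 61300 and 81590 TPM in WT and 123700 and 144600 TPM in KO spleen. Their part in the Hk1 values was not tested. A genotype effect shared by all tissues was 0.51 ± 0.23 for Hk1 (edgeR adjusted p = 1), and none of the 9 rows was called there (0.00432% of all genes).

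In small intestine the largest estimates were those of G6pc (log2 fold change 3.18 ± 1.94 SE), Hk2 (-2.48 ± 1.45) and Pck1 (2.05), all at an edgeR adjusted p of 1. These did not pair the libraries by number. Between libraries of the same number, Pck1 was higher in KO (92.0 against 11.02 and 191 against 50.02 TPM). Hk2 was lower in KO (11.7 against 71.9 and 2.47 against 3.39 TPM). G6pc went both ways (7.17 against 8.26 and 355 against 30.3 TPM). Pck1 in heart had -2.44 ± 1.57, with WT library 2 at 30.0 TPM. In liver, where libraries were most alike, all 8 estimates lay between -0.36 (Aldoa, SE 0.18) and 0.67 (Hk1, SE 0.50).

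In the spleen the estimates depended on which WT library was used. Over all 4 libraries they were -2.97 ± 3.18 for G6pc, -2.50 ± 2.49 for Fbp1 and -1.75 ± 2.25 for Pck1 (edgeR adjusted p = 1 for each). Without WT library 1, all 3 were called lower in KO, with -3.97, -3.50 and -2.72 (371 of 19970 genes were called). Without WT library 2, which had the most hepatocyte transcripts, all 3 were called higher, Fbp1 by 3.38 (edgeR adjusted p = 0.0804) and Pck1 by 3.01 (adjusted p = 0.0172), with 271 of 20006 genes called. The hepatocyte markers also stood higher in the KO libraries (medians of 0.102% and 0.153% of liver) than in the remaining WT library (0.0121%), and their part in these calls was not tested. G6pc was then at least 13.1-fold higher in KO, taking 3 counts in WT library 1 as the limit (0.095 TPM). In kidney, leaving out WT library 1 and keeping the library that stood apart made Hk1 (2.18) and Pklr (1.11) called higher in KO, among 2938 of 18244 genes.

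**Figure D5:**
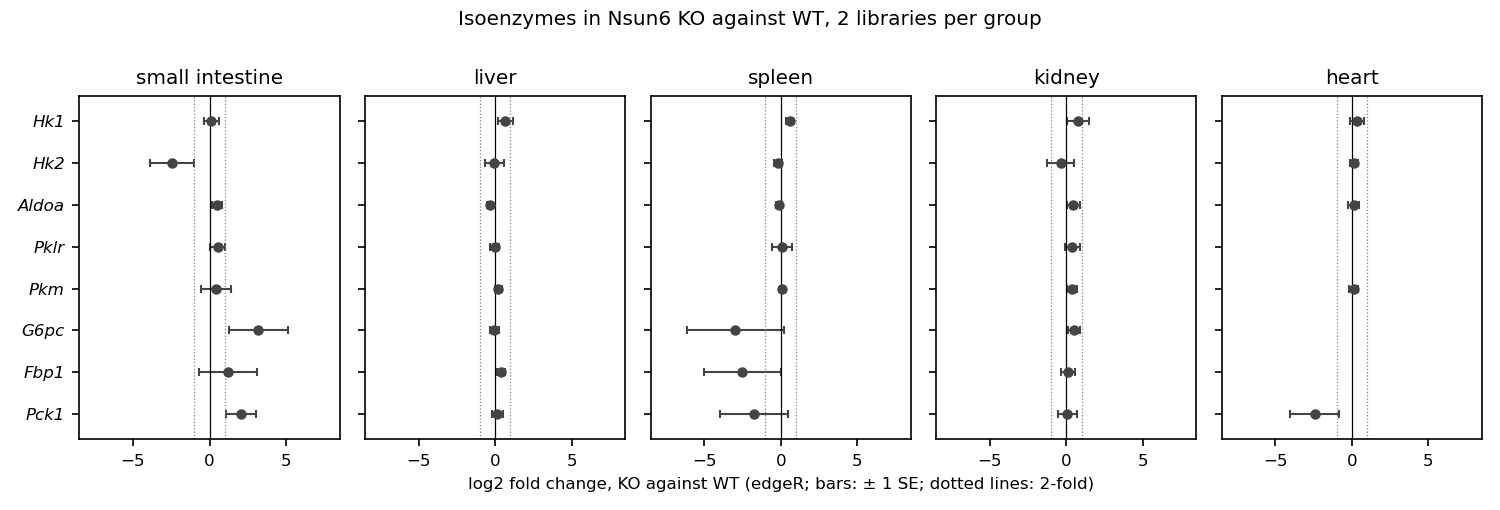
Log2 fold change of each isoenzyme in KO against WT, by tissue, from edgeR with 2 libraries per group; bars are 1 SE either side and dotted lines mark 2-fold. The estimates with wide bars (SE of 0.99 or more) were G6pc, Hk2, Pkm, Fbp1 and Pck1 in small intestine, the 3 bypass enzymes in spleen and Pck1 in heart. In liver all lay between -0.36 and 0.67.

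The test of whether the genotype effect differed between tissues called none of the 9 member rows (0% of 23159 genes; 535 genes, and no member, had an unadjusted p under 0.05 in edgeR, and DESeq2 called 112 genes and no member). With no filter on low counts it called 973 of 36620 genes, among them Hk2, G6pc, Fbp1 and Pck1.

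None of the other 37 pathway genes, of which 30 to 32 were tested in each tissue, was called between genotypes by edgeR. The smallest adjusted p belonged to Bpgm in spleen, the red cell bisphosphoglycerate mutase, with 124 and 120.3 TPM in WT and 185 and 257 TPM in KO libraries (log2 fold change 1.02 ± 0.20 SE, edgeR adjusted p = 0.17). The second in spleen was Pcx, the pyruvate carboxylase, at 2.52 and 3.64 TPM in WT and 5.74 and 5.21 TPM in KO (0.97 ± 0.30, edgeR adjusted p = 0.557). In both, the KO libraries lay above the WT ones. The 9 erythroid markers summed to 61300 and 81590 TPM in WT and 123700 and 144600 TPM in KO spleen. Their part in the Bpgm values was not tested. In small intestine Ldhb led (log2 fold change 1.89, edgeR adjusted p = 1), with 57.6 TPM in KO library 1, followed by Pfkm (0.96); the 5 smooth muscle markers there summed to 274 and 359 TPM in WT and 2689 and 1157 TPM in KO libraries. The 5 cardiomyocyte markers, led by Actc1, summed to 159 TPM in small intestine KO library 1 against 4.16 to 12.4 TPM in the other 3, beside Ldhb at a mean of 4435 TPM in heart, and the part of either marker list in the Ldhb value was not tested. In liver Ldhb had -1.27 (edgeR adjusted p = 0.947), in kidney Pgam1 had 0.62 and Eno1b 1.10, and in heart Pfkfb1 had 0.50 and Hk3 0.93, none called.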

How the data were processed

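Polyadenylated RNA of 20 mouse tissue samples was sequenced as paired-end stranded libraries. According to the study's methods and submitters' notes, the authors trimmed reads with cutadapt, aligned them with HISAT2 2.1.0 and counted them per gene over exons with featureCounts 2.0.1 (mm10). The deposited values are raw counts per gene. The methods state strand-specific counting, but the counting command stored in the deposited table carries no strand option, so reads of overlapping genes on opposite strands may be mixed. Columns were matched to samples by name, and 0 other per-sample columns were left unused.

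Counts were normalised by TMM, filtered with filterByExpr and tested with edgeR 4.0.16 (quasi-likelihood test, robust, Benjamini-Hochberg adjustment over all genes tested) in R 4.3.3 with limma 3.58.1. Genotypes were compared within each tissue, tissues in 1 fit of 20 libraries with 10 groups, and the small intestine libraries by number with genotype in the model. Calls needed an adjusted p under 0.1 and more than 2-fold change (adjusted p alone for the interaction of tissue and genotype). TPM used merged exon lengths, and isoenzyme shares are shares of family TPM. Alternatives were DESeq2 1.42.0 (also the study's tool), its size factors, no filter, other thresholds, a replicate block and each library left out. Figures were drawn with matplotlib 3.10.9 in Python 3.11.15, and the test scripts were tested on simulated data.

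The members, the pathway and marker lists and the comparisons were chosen with earlier results of these data known. All 8 members were named, with pathway genes called in the small intestine by number (8 of the 9), the 2 with the smallest p in each genotype comparison and the nearest gene by Pearson r of log2(TPM + 1). Some results of the pathway list and of the isoenzyme families are not reported here. Columns giving gene lengths and positions came from the authors. Depth limits genes near 0: a gene at 0 counts is given a limit of 3 counts, which covers counting error only.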

Additional observations from a re-analysis of the deposited data

Results flagged for a closer look

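In 7 of 38 groups of 4 libraries (a member in a tissue), 1 library lay far from the other 3 by Dixon's criterion. Its rate of about 1 in 20 groups holds for independent, normally distributed values. These groups mixed genotypes on the TPM scale, and 3 of the 7 rest on the same spleen library, so the count cannot be compared with that rate. In small intestine these were Hk2 at 71.9 TPM in WT library 1 (others 2.47 to 11.7 TPM) and G6pc at 355 TPM in KO library 2 (others 7.17 to 30.3 TPM). In liver, G6pc stood at 773 TPM in WT library 2 (others 559.8 to 594 TPM). Spleen WT library 2 was apart for 3 genes, G6pc at 21.1 TPM (others 0 to 1.88 TPM), Fbp1 at 35.6 TPM (0.314 to 3.20 TPM) and Pck1 at 52.7 TPM (1.05 to 9.23 TPM). In heart, Pck1 was at 30.0 TPM in WT library 2 (others 0.264 to 5.34 TPM). The causes were not tested.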

How the results depend on the processing

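Leaving out 1 library gave 0 to 3 called members for KO against WT in spleen, 0 to 2 in kidney and 0 in the other tissues, 5 to 8 between small intestine and spleen and 1 to 4 between small intestine libraries by number (without the genotype term, an alternative chosen after seeing the data, since 3 libraries leave no residual degrees of freedom beside it). Where a pair of WT or KO libraries was reduced to 1, that library was assumed to vary like the others. DESeq2 called 5 members by number in the small intestine (2207 of 17680 genes). The interaction of tissue and genotype called 4 with no filter on low counts (973 of 36620 genes). The cause was not tested.

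For KO against WT the log2 fold change of these members changed sign when 1 library was left out. The ranges in small intestine were -0.40 to 0.47 for Hk1, -3.70 to 0.65 for Hk2, -0.74 to 1.89 for Pkm, -1.86 to 4.69 for G6pc and -3.07 to 4.07 for Fbp1. In liver they were -0.99 to 0.77 for Hk2, -0.41 to 0.46 for Pklr, -0.44 to 0.46 for G6pc and -0.31 to 0.57 for Pck1. In spleen they were -0.41 to 0.12 for Aldoa, -0.54 to 1.25 for Pklr, -3.99 to 8.27 for G6pc (the upper value is fitted against a WT library at 0 counts, so its size depends on the prior count), -3.50 to 3.38 for Fbp1 and -2.72 to 3.01 for Pck1, and in kidney -0.996 to 0.21 for Hk2, -0.039 to 1.11 for Pklr, -0.18 to 0.53 for Fbp1 and -0.58 to 0.60 for Pck1. In heart they were -0.31 to 0.90 for Hk1, -0.0015 to 0.31 for Aldoa and -5.39 to 2.58 for Pck1. Between tissues, Hk1 in spleen against kidney ran from -0.70 to 0.20, and in spleen against heart G6pc ran from -0.64 to 7.18 and Pck1 from -1.69 to 3.37. Aldoa by number in the small intestine ran from -0.51 to 0.11.

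The labels do not say that replicate numbers pair the samples, and same-numbered libraries deviated together with r = 0.681 in small intestine, 0.0901 in liver, -0.0439 in spleen, 0.307 in kidney and 0.514 in heart. With the replicate block no member was called for KO against WT, the genes called were 0, 20, 43, 0 and 6 in that order, and Pklr and G6pc in liver turned to 0.019 and 0.014. Genes called for KO against WT in liver were 8 by edgeR, 56 by DESeq2 and 122 with no filter, and in spleen 42, 219 and 313, with 0 at an adjusted p under 0.05. In small intestine they were 0 by edgeR and 61 by DESeq2. By number in the small intestine, 1350 genes became 2207 with DESeq2 and 602 at 0.05. No member was called for KO against WT under any of the settings in this paragraph.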
